A study of Mus musculus with 12 samples.

Results

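The genes described here are the ubiquitin-conjugating enzymes (Ube2), the deubiquitinases of the Usp and Uch families and the ubiquitin-activating enzymes (Uba) of mouse embryonic stem cells. They were chosen by a rule on names, set with earlier results of these data known. It took every probe set whose single gene symbol in the array annotation starts with Ube2, with Usp and a digit, with Uch, or with Uba and a digit. This gave 53 genes, read by 74 of the 12488 probe sets, among 8251 genes with a single symbol: 21 Ube2, 3 Uba, 27 Usp and 2 Uch genes. A probe set is a group of short oligonucleotides that together read 1 transcript.

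RNA was measured on 12 Affymetrix MG_U74Av2 arrays. All cells were clone C2, 1 clone derived from the E14tg2a embryonic stem cell line, whose genome carries targeted recognition sites for the endonuclease I-SceI; the controls carry them too. Control cells were kept in phosphate-buffered saline (PBS) with no peroxide (n = 3). Treated cells were exposed to H2O2, an oxidant that crosses cell membranes. The low dose was 100 µM during 15 min (n = 4) and the high dose 5 mM during 30 min (n = 5). Before RNA was taken they recovered in maintenance medium over 1 h. Concentration and time of exposure differ together, and the sources used here do not say how long the controls stayed in PBS or whether they were returned to medium. The labels do not tell whether the arrays of a group came from different cultures. The p-values therefore reflect the spread among these arrays alone, and that spread may be technical.

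Ubiquitin is a small protein that cells attach to other proteins to mark them for the proteasome or to change what they do. An activating enzyme (E1) charges ubiquitin and passes it to a conjugating enzyme (E2), and a ligase (E3) brings the loaded E2 to its target. Deubiquitinases take ubiquitin off again, trim chains and recycle them. Sumo, Nedd8, Isg15 and other ubiquitin-like proteins have E1 and E2 enzymes of their own, some of which carry the same names. In embryonic stem cells this system is known for the fast turnover of cell cycle proteins, of p53 and of oxidised proteins, and the active-site cysteines of E1, E2 and most deubiquitinase proteins can be oxidised by peroxide. Arrays measure their mRNA only.

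The sequence upstream of a gene is shown for 5 members, 250 bases each, because they stand for the patterns described below: Ube2d3 and Usp48, read higher at the low dose than in both other groups, Ube2z and Usp34, read lower there, and Ube2c, read higher at both doses. These patterns are those of each gene's brightest probe set. On a dimmer probe set of Ube2z all low-dose arrays lay above all controls. The pattern of Usp34 passed the threshold used below on its brighter probe set only. That of Ube2c rests on 1 dim probe set. Sequences are those of RefSeq, build GRCm38.p6, written 5′ to 3′ on the gene's strand and ending at the base before the most upstream listed start. Capitals mark matches on either strand to 4 motifs. The GC box was searched as GGGCGG. The CCAAT box has its letters in its name. The cell cycle homology region was searched as TTTGAA, and the antioxidant response element as TGACNNNGC.
Ube2d3 (chr3:135437982-135438231, plus strand): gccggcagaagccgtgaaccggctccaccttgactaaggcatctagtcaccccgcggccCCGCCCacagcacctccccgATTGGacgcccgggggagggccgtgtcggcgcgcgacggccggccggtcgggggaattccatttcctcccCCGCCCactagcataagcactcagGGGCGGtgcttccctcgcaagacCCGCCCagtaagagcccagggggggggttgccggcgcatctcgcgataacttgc
Usp48 (chr4:137593922-137594171, plus strand): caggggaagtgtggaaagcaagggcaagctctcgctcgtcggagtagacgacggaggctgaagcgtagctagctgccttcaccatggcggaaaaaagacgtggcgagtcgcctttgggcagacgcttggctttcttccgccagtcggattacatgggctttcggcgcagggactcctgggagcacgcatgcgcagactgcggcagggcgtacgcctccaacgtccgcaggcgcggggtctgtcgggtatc
Ube2z (chr11:96065365-96065614, minus strand): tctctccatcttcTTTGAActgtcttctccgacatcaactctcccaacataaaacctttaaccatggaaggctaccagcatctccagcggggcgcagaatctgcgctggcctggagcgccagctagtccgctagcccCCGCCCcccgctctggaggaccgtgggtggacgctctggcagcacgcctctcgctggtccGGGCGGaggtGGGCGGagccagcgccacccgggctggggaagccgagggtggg
Usp34 (chr11:23306645-23306894, plus strand): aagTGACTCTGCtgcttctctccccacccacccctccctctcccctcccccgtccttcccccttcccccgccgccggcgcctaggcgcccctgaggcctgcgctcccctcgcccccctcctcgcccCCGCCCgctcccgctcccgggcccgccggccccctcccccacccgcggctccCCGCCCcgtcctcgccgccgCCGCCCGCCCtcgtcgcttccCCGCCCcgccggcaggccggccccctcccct
Ube2c (chr2:164769679-164769928, plus strand): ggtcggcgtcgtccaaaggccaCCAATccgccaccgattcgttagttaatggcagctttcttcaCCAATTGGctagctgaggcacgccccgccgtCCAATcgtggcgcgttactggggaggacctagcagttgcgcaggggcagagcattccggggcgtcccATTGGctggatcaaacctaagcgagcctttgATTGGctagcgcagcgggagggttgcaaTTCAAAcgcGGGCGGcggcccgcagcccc
Ube2c, whose product acts in mitosis, held 6 CCAAT boxes, 2 of them overlapping on opposite strands, 1 cell cycle homology region and 1 GC box in this window. Ube2d3 held 4 GC boxes and 1 CCAAT box, Ube2z 3 GC boxes and 1 cell cycle homology region, and Usp34 5 GC boxes, 2 of them overlapping, and 1 antioxidant response element. The window of Usp48 held no match. Upstream sequence was listed for 39 members, and 26 of them (66.7%) held a GC box, against 59.9% of 5164 genes tested on the array that had a listed start and 33.0% of all 27025 listed genes. A CCAAT box was found in 11 (28.2%, against 36.3% of the array's genes and 34.5% of all), the cell cycle homology region in 5 (12.8%, against 10.9% and 16.3%) and the antioxidant response element in 6 (15.4%, against 12.1% and 10.1%). TGACGTCA, the cAMP response element, was found in 1 (2.56%, against 2.52% and 1.60%). Of the 6 genes lower at the low dose that had a sequence, 5 held a GC box, and of the 4 higher ones 2 did. A match is a description of letters, not of a bound site.

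The deposited values are MAS5 signals, brightness values on a linear scale. Arrays of 1 group correlated at r = 0.958 to 0.978 across probe sets (19 pairs) and arrays of different groups at 0.921 to 0.957 (47 pairs). The ratio of the 3′ to the 5′ actin probe set, a sign of RNA integrity, was 1.99 on control replicate 1, 0.871 and 0.921 on control replicates 2 and 3, and 1.05 to 1.49 on all treated arrays. It thus moved with the groups apart from control replicate 1, and its part in the results was not tested. All 10 stem cell markers on the list used (among them Pou5f1, Sox2 and Nanog) passed the filter on dim probe sets, with summed signals of 26553 to 29677 on control, 33037 to 38768 on low-dose and 30121 to 35787 on high-dose arrays. Single stem cell markers went both ways: 2 rose and 1 fell at the high dose (median -0.14), and 4 rose and 1 fell at the low dose (median 0.35). Between the doses 1 was higher and 3 were lower at the high dose (median -0.01). The 10 primitive endoderm markers also passed the filter, and their sum moved with the groups: 4718 to 6535 on control arrays, 7840 to 8283 on low-dose arrays and 639.8 to 853 on high-dose arrays. At the high dose 8 of them fell, and at the low dose 5 rose. For 10 fibroblast markers, 6 above the filter, the sums were 1202 to 1385, 1460 to 1790 and 1276 to 1643, and for 8 markers of ectoderm and mesoderm, 5 above it, 159 to 232, 213 to 291 and 186 to 447. In bulk RNA, fewer cells of a type and less RNA per cell cannot be told apart, and the part of endoderm cells in the results below was not tested. The brightest probe set read 7206 to 8904 on control arrays but 14976 to 24225 and 19733 to 34685 on low-dose and high-dose arrays. No member's signal exceeded 2621.

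Of the 53 genes, 46 passed the filter on dim probe sets and were tested, each through its brightest probe set. The other 7 had mean signals of 3.60 to 18.7 and are listed at the end of the deubiquitinases. Changes are given on the log2(signal + 10.1) scale, which understates those of dim genes, and a gene is called where limma's p-value, adjusted by the Benjamini-Hochberg method over all 8695 probe sets tested, is under 0.05. After the high dose 2 members rose and 3 fell (10.9%), where 12.2% of all 6414 genes tested were called, 5.36% higher and 6.84% lower. After the low dose 4 rose and 8 fell (26.1%, background 24.6%, with 11.9% higher and 12.7% lower). Between the doses, 10 were higher and 5 lower at the high dose (32.6%, background 29.0%, with 13.8% higher and 15.2% lower). All 3 shares were near the background. Over all probe sets tested, 11.7% were called at the high dose (5.68% higher, 6.03% lower), 24.0% at the low dose (12.8% and 11.2%) and 27.4% between the doses (12.8% and 14.6%). Single arrays weigh on these counts: the 5 high-dose calls became 1 without control replicate 2 or high-dose replicate 2 or 5, 2 without control replicate 3 or high-dose replicate 1 and 3 without control replicate 1, while of 12 low-dose calls there were 6 when control replicate 2 was left out and 7 when control replicate 3 was. With arrays set to equal medians, the low-dose split was 1 higher and 15 lower, the high-dose split 1 and 3 and the split between doses 12 and 3. All probe sets tested tilted the same way: the same scaling moved their splits from 1110 higher and 977 lower to 574 and 1497 at the low dose, from 494 and 524 to 311 and 614 at the high dose, and from 1113 and 1272 to 1412 and 871 between the doses. After quantile normalization the members' high-dose split was 2 and 1. Median scaling moved the median change of all probe sets tested at the low dose from 0.08 to -0.09.

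As a group, the members had a median log2 change of -0.10 after the high dose (all genes tested -0.01), -0.17 after the low dose (all genes 0.04) and 0.18 between the doses (all genes -0.04). Single members ranged from -0.80 (Ube2e1) to 0.80 (Ube2c) after the high dose and from -0.79 (Ube2d2a) to 0.76 (Ube2c) after the low dose. Between the doses the range ran from -1.40 (Ube2d3) to 0.96 (Usp2). In all, 21 members were called in at least 1 of the 3 comparisons, 10 of them in 2 or more, and 25 in none. The same counts were not made over all genes, so these 3 counts have no background to be read against. Of the 23 E1 and E2 genes tested, 4 were called after the high dose, 5 after the low dose and 4 between the doses, and of the 23 deubiquitinases 1, 7 and 11. Over all genes the shares were those given above (12.2%, 24.6% and 29.0%), and the difference between these classes was not tested.

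**Figure D1:**
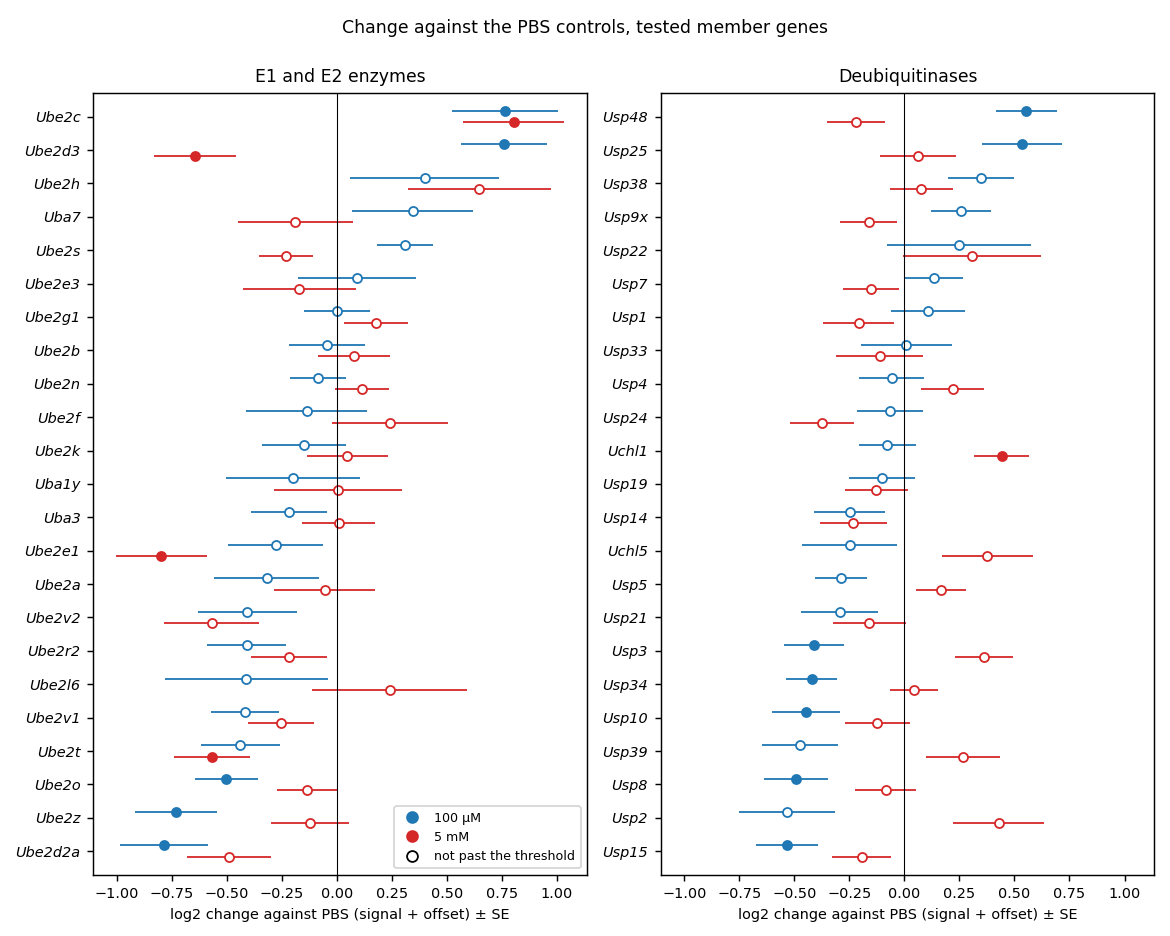
Log2 change of signal plus offset against the PBS controls, with its standard error, for the 46 tested genes, E1 and E2 enzymes on the left and deubiquitinases on the right, ordered by the low-dose change. Blue stands for 100 µM and red for 5 mM; filled points passed the threshold and open points did not. Ube2d3 lies at 0.76 for 100 µM and -0.64 for 5 mM, while Ube2c lies at 0.76 and 0.80.

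Among the E2 enzymes, the Ube2d and Ube2e families, which load a wide range of RING ligases, held the member with the widest swing. Ube2d3, which encodes an E2 used by many ligases, Mdm2 among them, read 357, 491 and 500.0 on the PBS arrays, 1012, 655, 811 and 617 at 100 µM and 241, 235, 339.5, 355 and 254 at 5 mM. Every low-dose array lay above every control and every high-dose array below, so that none of the groups overlapped. The log2 change was 0.76 ± 0.20 (SE, adjusted p = 0.0112) at the low dose, -0.64 ± 0.19 (SE, adjusted p = 0.0355) at the high dose and -1.40 ± 0.17 (SE, adjusted p = 2.1e-05) between the doses, where the low dose read 2.64-fold higher. A different probe set of the gene read 417, 493 and 476 on the PBS arrays, 685, 669.8, 771 and 734 at 100 µM and 268, 181, 316, 287 and 248 at 5 mM. It gave the same order with no overlap, at 0.62 ± 0.16 (SE, adjusted p = 0.0114), -0.82 ± 0.15 (SE, adjusted p = 0.00259) and -1.44 ± 0.14 (SE, adjusted p = 2.1e-06). For the brighter probe set the low-dose call was lost without control replicate 1 (adjusted p = 0.0515). The high-dose call was lost without any 1 of control replicates 2 and 3 and high-dose replicates 1, 2 and 5 (adjusted p from 0.0725 to 0.139) and after quantile normalization and with no variance trend (adjusted p from 0.0607 to 0.067). With the replicate number as a block that high-dose call was lost too. For the other probe set the low-dose call was lost after scaling to a common median (adjusted p = 0.0977). The endoderm marker sums have the same order of groups as Ube2d3, and their part in it was not tested.

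Ube2d2a, a close relative of Ube2d3, did not follow it. Its signal was 424, 480.2 and 437 on the PBS arrays, 311, 167, 236 and 341 at 100 µM and 351, 285, 339, 351 and 259 at 5 mM. All treated arrays lay below all controls, with changes of -0.79 ± 0.20 (SE, adjusted p = 0.0104) after the low and -0.49 ± 0.19 (SE, adjusted p = 0.109) after the high dose, so only the low-dose fall passed. The high-dose change passed when only the groups compared were fitted (adjusted p = 0.0423) and without low-dose replicate 2 (adjusted p = 0.0473). The other tested probe set of Ube2d2a, of means 58.1, 62.0 and 54.9 in controls, low and high dose, gave 0.06 and -0.12 and passed in neither. Ube2d genes are near-copies of each other, and the brighter Ube2d3 probe set and the dimmer Ube2d2a one carry the suffix f, with which Affymetrix marks probes shared by a sequence family. Their signals may therefore hold RNA of relatives.

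Ube2e1, an E2 of a related family, was lower at the high dose on its 1 probe set, which carries the suffix f too and may hold RNA of relatives. It read 259.7, 184 and 184 on the PBS arrays, 210.2, 160.2, 166 and 144 at 100 µM and 106, 79.0, 119.9, 167 and 116 at 5 mM. The high-dose arrays lay below the controls with no overlap (-0.80 ± 0.21 (SE, adjusted p = 0.0214)). The low-dose arrays overlapped both other groups (-0.28 against the controls, adjusted p = 0.384). The call was lost without control replicate 1 (adjusted p = 0.086), the brightest array of the gene, whose removal left -0.64. The difference between the doses, -0.52 ± 0.19 (SE, adjusted p = 0.0531), passed with a filter at the 50th percentile (adjusted p = 0.0446), without control replicate 1 (adjusted p = 0.0423), without low-dose replicate 4 (adjusted p = 0.0495) and without high-dose replicate 4 (adjusted p = 0.0161). Ube2e3, of the same family, was dim and gave 0.09 and -0.17 at the low and high dose (adjusted p = 0.842 and 0.72).

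The E2 enzymes of the anaphase-promoting complex, the ligase that drives cells out of mitosis, were both called, in different comparisons. Ube2c, which starts chains on its substrates, read 77.1, 63.8 and 48.2 on the PBS arrays, 111, 165, 96.5 and 89.9 at 100 µM and 98.5, 151, 91.4, 103 and 147 at 5 mM. All treated arrays lay above all controls, while the doses overlapped (0.04 between them, adjusted p = 0.912). The rises were 0.76 ± 0.24 (SE, adjusted p = 0.0302) after the low and 0.80 ± 0.23 (SE, adjusted p = 0.0335) after the high dose. This rests on 1 dim probe set of reduced probe number (suffix r): the low-dose call was lost without any 1 of control replicates 2 and 3 and low-dose replicates 1 and 2 (adjusted p from 0.0515 to 0.13) and after quantile normalization and after scaling to a common median (adjusted p from 0.083 to 0.0859). The high-dose call was lost without any 1 of control replicates 2 and 3 and high-dose replicates 2 and 5 (adjusted p from 0.072 to 0.15) and with no filter (adjusted p = 0.054). Ube2s, which lengthens the chains that Ube2c begins, read 1668, 1671 and 2016 on the PBS arrays, 1882, 2280.5, 2621 and 2099 at 100 µM and 1539, 1572, 1580.2, 1360.5 and 1519 at 5 mM. Its high-dose arrays lay below all others and its low-dose arrays overlapped the controls. Only the difference between the doses passed, at -0.54 ± 0.11 (SE, adjusted p = 0.00199); the low-dose value of 0.31 passed after quantile normalization (adjusted p = 0.0443) and without low-dose replicate 1 (adjusted p = 0.0487).

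Of 6 E2 genes of DNA damage and chromatin, 1 fell at the high dose and none was called at the low dose or between the doses (limma's unadjusted p was under 0.05 for 2 of them at the low dose and for 0 between the doses). The shares over all genes were 12.2% at the high dose, 24.6% at the low dose and 29.0% between the doses. With 6 genes, the difference from these shares was not tested. Ube2t, the E2 of the Fanconi anaemia pathway of crosslink repair, read 756, 995 and 828 on the PBS arrays, 589.6, 653, 815 and 494 at 100 µM and 562, 423, 679, 616 and 622 at 5 mM. The high-dose arrays lay below the controls (-0.57 ± 0.17 (SE, adjusted p = 0.0418)) and the low-dose arrays overlapped both groups (-0.44, adjusted p = 0.0877). The high-dose call was lost without any 1 of control replicates 2 and 3, low-dose replicate 1 and high-dose replicates 1, 2, 4 and 5 (adjusted p from 0.0519 to 0.189) and after quantile normalization, with no filter and with no variance trend (adjusted p from 0.0562 to 0.0782). It was lost with the replicate number as a block too. The low-dose value passed after scaling to a common median (adjusted p = 0.0292), with array quality weights (adjusted p = 0.0398) and without low-dose replicate 3 (adjusted p = 0.037). Ube2v2 and Ube2v1, inactive E2 variants that pair with Ube2n to build chains with a signalling rather than a degradative role, gave -0.57 and -0.25 at the high dose. Their low-dose values were -0.41 and -0.42. The low-dose value of Ube2v1 (adjusted p = 0.0619 with all arrays) passed after scaling to a common median (adjusted p = 0.00978) and without low-dose replicate 1 (adjusted p = 0.0331). With the replicate number as a block it passed as well (adjusted p = 0.032). Their partner Ube2n, and Ube2a and Ube2b, the E2 enzymes that act with Rad18 on the replication clamp, ranged from -0.32 (Ube2a, low dose) to 0.26 (Ube2a, between the doses).

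Among the other E2 enzymes, Ube2o and Ube2z were lower at the low dose and higher again at the high dose. Ube2o, a large enzyme that combines E2 and E3 functions, read 359, 439 and 341 on the PBS arrays, 253, 279, 228 and 299 at 100 µM and 391, 366, 297, 337 and 329 at 5 mM. The low-dose arrays lay below the controls, while 1 of them overlapped the high-dose range. The changes were -0.50 ± 0.14 (SE, adjusted p = 0.0196) at the low dose and 0.37 ± 0.13 (SE, adjusted p = 0.041) between the doses. A dimmer probe set of Ube2o, suffix f, read 169, 335 and 332 on the PBS arrays, 136, 106, 119 and 121 at 100 µM and 305, 207, 191, 243 and 217 at 5 mM, with the low-dose arrays below all others (-1.09 ± 0.22 (SE, adjusted p = 0.00248) and 0.88 ± 0.19 (SE, adjusted p = 0.00294)). For the brighter probe set the low-dose call was lost without any 1 of control replicate 2 and low-dose replicate 3 (adjusted p from 0.0558 to 0.108). That between the doses was lost without any 1 of low-dose replicates 1, 2 and 3 and high-dose replicates 1, 2, 4 and 5 (adjusted p from 0.0546 to 0.127) and with no variance trend (adjusted p = 0.0562). The replicate number as a block ended it too.

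Ube2z, an E2 that receives ubiquitin from the alternative E1 Uba6, read 1054, 817 and 711 on the PBS arrays, 517, 589.6, 369 and 591 at 100 µM and 782, 866, 747, 938 and 608 at 5 mM. The low-dose arrays were again below all others. The changes were -0.73 ± 0.19 (SE, adjusted p = 0.0104) at the low dose and 0.61 ± 0.16 (SE, adjusted p = 0.0106) between the doses, and no alternative fitted to this probe set ended either call. A dimmer probe set of Ube2z had the other sign at the low dose, 0.38 (adjusted p = 0.153), and gave 0.07 between the doses (adjusted p = 0.803), so the gene's probe sets disagree and neither call holds on it. Ube2h, an E2 expressed strongly in red cell precursors, and Ube2r2, a partner of cullin ligases, were called in no comparison through their brightest probe sets, with low-dose values of 0.40 and -0.41. The value of Ube2r2 passed after scaling to a common median (adjusted p = 0.013), with array quality weights (adjusted p = 0.0139) and without control replicate 1 (adjusted p = 0.0238). For Ube2h, a dimmer probe set gave 0.68 ± 0.23 (SE, adjusted p = 0.0452), which was lost without any 1 of control replicates 1, 2 and 3, low-dose replicates 1, 3 and 4 and high-dose replicates 1, 2 and 4 (adjusted p from 0.0502 to 0.163) and after quantile normalization, after scaling to a common median and with no filter (adjusted p from 0.0724 to 0.0975). Ube2k, known for building degradative chains, ranged from -0.15 to 0.20 over the 3 comparisons on its brightest probe set. Its other probe set, suffix g, gave 0.60 at the low dose (adjusted p = 0.199) and -0.33 between the doses (adjusted p = 0.426). Ube2w, which attaches ubiquitin to the start of proteins, was too dim to be tested.

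For the endoplasmic reticulum and the ubiquitin-like modifiers limma called no E2 (0 with p under 0.05 before adjustment in any comparison). Of all genes tested, 12.2% were called at the high dose, 24.6% at the low dose and 29.0% between the doses. Ube2g1, which serves degradation at the endoplasmic reticulum, read 899.8, 899 and 880.1 on the PBS arrays, 889, 779, 1035 and 888 at 100 µM and 915, 763, 1156, 1093 and 1203 at 5 mM, with overlap between all groups and changes of 0.00 and 0.18 at the low and high dose. Ube2f (Nedd8) and Ube2l6 (Isg15) were dim and gave 0.38 and 0.65 between the doses (adjusted p = 0.27 and 0.153), the latter passing without low-dose replicate 2 (adjusted p = 0.0445).

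**Figure D2:**
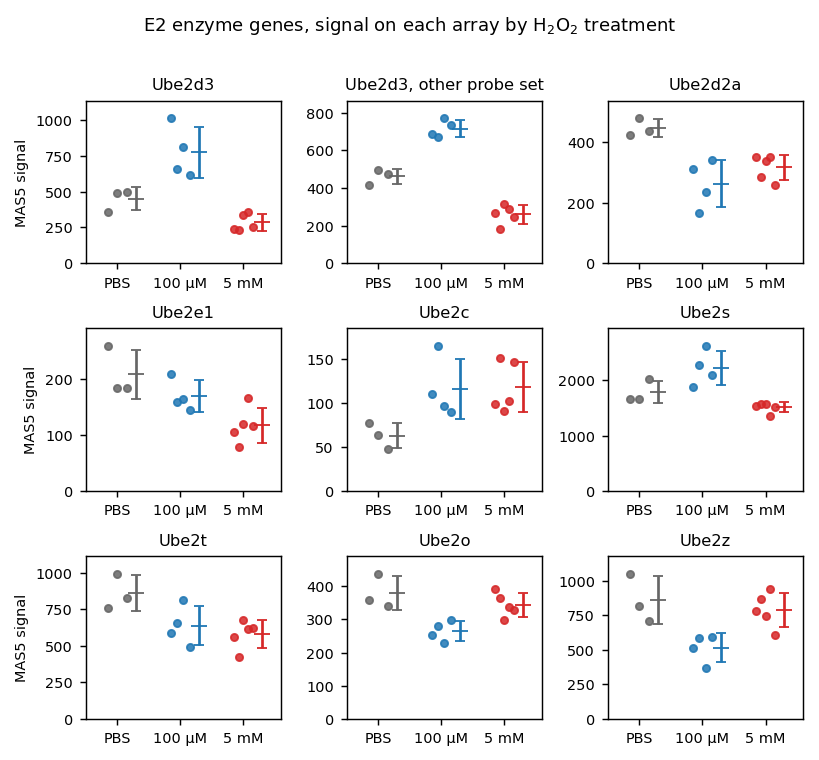
MAS5 signal on each array (linear vertical axes from 0) for the 8 E2 genes called in at least 1 comparison, with a second probe set for Ube2d3. Points are single arrays, and the bar beside them is the mean with its SD (n = 3 PBS, 4 at 100 µM, 5 at 5 mM). Both Ube2d3 probe sets separate all 3 groups, and Ube2o and Ube2z are lowest at 100 µM.

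None of the 3 activating enzyme genes was called in limma in any comparison (1 had an unadjusted p under 0.05, Uba7 between the doses). Among all genes tested the shares called were 12.2% at the high dose, 24.6% at the low dose and 29.0% between the doses. Uba3, the catalytic subunit of the Nedd8 E1, read 293, 335 and 300.3 on the PBS arrays, 273, 238, 291 and 257 at 100 µM and 279, 221, 362, 383 and 337 at 5 mM, and its low-dose arrays lay just below the controls (-0.22 ± 0.17 (SE, adjusted p = 0.388)). At the high dose its change was 0.01. Uba7, the E1 of Isg15, gave 0.35 at the low dose and -0.53 ± 0.24 (SE, adjusted p = 0.115) between the doses. Uba1y, the Y-linked copy of the ubiquitin E1 gene, was dim and gave -0.20 and 0.00.

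Of 21 tested Usp genes, 2 rose and 5 fell at the low dose (33.3%, all genes 24.6%). At the high dose limma called none (2 with p under 0.05 before adjustment), where 12.2% of all genes were called. Between the doses 6 were higher and 3 lower at the high dose than at the low dose (42.9%, all genes 29.0%). The difference from all genes was not tested. Usp48, a nuclear enzyme that acts on histone H2A, read 1419, 1296 and 1034 on the PBS arrays, 1605, 1843, 2011 and 1856 at 100 µM and 948, 1278, 1000.4, 1031 and 1082 at 5 mM. Its low-dose arrays lay above all others, and the high-dose arrays overlapped the controls. The changes were 0.55 ± 0.14 (SE, adjusted p = 0.00921) at the low dose and -0.77 ± 0.12 (SE, adjusted p = 1.9e-04) between the doses. The low-dose call was lost without control replicate 3 (adjusted p = 0.057) and after scaling to a common median (adjusted p = 0.128), while that between the doses, 1.71-fold lower at the high dose, held under every alternative.

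Usp9x, a large enzyme that stabilises many proteins in stem cells, read 962, 1095 and 1044 on the PBS arrays, 1285, 1274, 1318 and 1078 at 100 µM and 840.2, 842, 870.1, 1192 and 905 at 5 mM. The doses overlapped through 1 array, high-dose replicate 4. The gene was lower at the high dose than at the low dose (-0.42 ± 0.12 (SE, adjusted p = 0.015)), with 0.26 and -0.16 against the controls (adjusted p = 0.186 and 0.458). The call was lost after scaling to a common median (adjusted p = 0.108) and with the replicate number as a block. A dimmer probe set gave -0.43 (adjusted p = 0.0807). Usp25, an enzyme of innate immune signalling, read 77.4, 84.6 and 74.9 on the PBS arrays, 105, 125, 134 and 113 at 100 µM and 86.0, 89.4, 63.1, 92.1 and 86.8 at 5 mM, its low-dose arrays above all others. The changes were 0.53 ± 0.18 (SE, adjusted p = 0.041) at the low dose and -0.47 ± 0.16 (SE, adjusted p = 0.0357) between the doses. Its dim probe set, suffix r, lost the low-dose call without any 1 of control replicates 1, 2 and 3, low-dose replicates 2, 3 and 4 and high-dose replicate 1 (adjusted p from 0.0523 to 0.115) and after quantile normalization, after scaling to a common median, with no filter and when only the groups compared were fitted (adjusted p from 0.0615 to 0.174). The call between the doses was lost without any 1 of low-dose replicates 2, 3 and 4 and high-dose replicates 1 and 3 (adjusted p from 0.0547 to 0.104) and after quantile normalization, after scaling to a common median and with no filter (adjusted p from 0.0604 to 0.113). Both calls of Usp25 were also lost with the replicate number as a block.

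The Usp genes that fell at the low dose were Usp15, Usp8, Usp10, Usp34 and Usp3. Usp34, an enzyme of Wnt signalling through axin, read 989, 944 and 943 on the PBS arrays, 746, 646, 738 and 728 at 100 µM and 920.5, 1018, 936, 932 and 1148 at 5 mM. Its low-dose arrays lay below all others, while controls and high dose overlapped. The changes were -0.42 ± 0.11 (SE, adjusted p = 0.015) at the low dose and 0.46 ± 0.10 (SE, adjusted p = 0.00274) between the doses, and no alternative fitted to this probe set, which carries the suffix g, ended either call. A dimmer probe set with no suffix passed in neither comparison, at -0.56 (adjusted p = 0.063) and 0.21 (adjusted p = 0.434). That dimmer low-dose value passed after scaling to a common median (adjusted p = 0.0133), with array quality weights (adjusted p = 0.024), without low-dose replicate 1 (adjusted p = 0.0432) and without low-dose replicate 2 (adjusted p = 0.0182).

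Usp3, which removes ubiquitin from histone H2A, fell at the low dose. It read 476, 463 and 512 on the PBS arrays, 309, 381, 369.7 and 389 at 100 µM and 633, 570.2, 661, 526 and 747 at 5 mM. Low-dose arrays lay below the controls and high-dose arrays above, without overlap between any groups on this probe set, which carries the suffix s. The change between the doses was 0.77 ± 0.12 (SE, adjusted p = 1.9e-04), or 1.71-fold, and against the controls it was -0.41 ± 0.14 (SE, adjusted p = 0.0393) and 0.36 ± 0.13 (SE, adjusted p = 0.088). Among the alternatives the high-dose value passed with array quality weights (adjusted p = 0.0447). The low-dose call was lost without any 1 of control replicates 1, 2 and 3, low-dose replicates 1, 2 and 3 and high-dose replicate 1 (adjusted p from 0.0523 to 0.125) and after quantile normalization, with no variance trend and when only the groups compared were fitted (adjusted p from 0.0518 to 0.0631). Its other probe sets gave -0.34 and -0.45 at the low dose, and 0.37 (adjusted p = 0.0185) and 0.42 (adjusted p = 0.0754) between the doses. They did not place the high dose above the controls, at 0.03 (adjusted p = 0.915) and -0.02 (adjusted p = 0.952), with overlap on both. The first of them passed at the low dose after scaling to a common median (adjusted p = 0.0118), with a filter at the 50th percentile (adjusted p = 0.043) and with array quality weights (adjusted p = 0.0333). For the other this was so after quantile normalization (adjusted p = 0.0258), after scaling to a common median (adjusted p = 0.0204) and with array quality weights (adjusted p = 0.0348). The call of the former between the doses was lost without low-dose replicate 2 (adjusted p = 0.0557) and with the replicate number as a block. The block also ended the low-dose call of the probe set with the suffix s.

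Usp15, a regulator of TGF-beta receptor signalling, read 733, 801 and 589 on the PBS arrays, 444, 469, 469.9 and 552 at 100 µM and 562, 552, 576, 667 and 722 at 5 mM, with the low-dose arrays below the controls. The change of -0.53 ± 0.14 (SE, adjusted p = 0.013) was lost without control replicate 2 (adjusted p = 0.0722). Between the doses the value was 0.34 ± 0.12 (SE, adjusted p = 0.0532); it passed after quantile normalization (adjusted p = 0.033), after scaling to a common median (adjusted p = 0.0227), with a filter at the 50th percentile (adjusted p = 0.0433), when only the groups compared were fitted (adjusted p = 0.045), without control replicate 3 (adjusted p = 0.0441), without low-dose replicate 4 (adjusted p = 0.0363) and without high-dose replicate 2 (adjusted p = 0.0445). On a dimmer probe set the sign at the low dose was the other, 0.43 (adjusted p = 0.324). Its high-dose arrays (46.1 to 100.1) lay above all its controls (27.0 to 42.4), at 0.83 (adjusted p = 0.0709). The brighter probe set gave -0.19 at the high dose (adjusted p = 0.387).

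Usp8, which acts on receptors sorted in endosomes, read 409.8, 291 and 318 on the PBS arrays, 226, 244, 244 and 229 at 100 µM and 333, 357, 331, 281 and 286 at 5 mM. Its low-dose arrays lay below all others and close together. The changes were -0.49 ± 0.14 (SE, adjusted p = 0.0212) and, between the doses, 0.41 ± 0.13 (SE, adjusted p = 0.0241). The first was lost without control replicate 1 (adjusted p = 0.0976) and with the replicate number as a block. The other was lost without any 1 of low-dose replicates 1 and 4 and high-dose replicates 1, 2 and 3 (adjusted p from 0.0512 to 0.057). Usp10, a stress granule regulator and p53 deubiquitinase, read 979, 1386 and 1219 on the PBS arrays, 1082, 784, 741 and 889.6 at 100 µM and 1054, 1097, 1042, 965 and 1294 at 5 mM, with overlap between all groups. Its change of -0.45 ± 0.15 (SE, adjusted p = 0.0446) was lost without any 1 of control replicates 2 and 3, low-dose replicates 2, 3 and 4 and high-dose replicates 1, 2 and 3 (adjusted p from 0.0502 to 0.197) and after quantile normalization, with no filter, with no variance trend and when only the groups compared were fitted (adjusted p from 0.0591 to 0.0816). The replicate number as a block ended that low-dose call of Usp10 too. Between the doses its value of 0.32 passed after scaling to a common median (adjusted p = 0.0116) and without low-dose replicate 1 (adjusted p = 0.0315).

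A further 3 Usp genes were called between the doses and not against the controls. Usp2, a target of the circadian clock that acts on Mdm2 and cyclin D, read 101, 104 and 79.6 on the PBS arrays, 74.6, 39.0, 58.7 and 84.1 at 100 µM and 147, 137, 126, 120.2 and 120.5 at 5 mM. Its high-dose arrays lay above all others, by 0.96 ± 0.19 (SE, adjusted p = 0.00142) against the low dose, the largest rise of any member in that comparison. Against the controls the values were -0.53 ± 0.22 (SE, adjusted p = 0.0877) and 0.43 ± 0.21 (SE, adjusted p = 0.202). Another probe set read 145, 169 and 158 on the PBS arrays, 60.0, 26.6, 39.8 and 41.1 at 100 µM and 149, 102, 153, 134 and 54.1 at 5 mM. There the low-dose arrays lay below the controls, with a change of -1.72 ± 0.30 (SE, adjusted p = 7.9e-04), and 1 high-dose array lay within the low-dose range, with a difference between the doses of 1.27 ± 0.26 (SE, adjusted p = 0.00174). The probe sets had the same sign at the low dose and between the doses, and opposite signs at the high dose against the controls. The low-dose value of the first passed after quantile normalization (adjusted p = 0.0304), after scaling to a common median (adjusted p = 0.0264) and without low-dose replicate 4 (adjusted p = 0.0419).

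Usp39, a splicing factor of the family that lacks protease activity, read 348, 226 and 242 on the PBS arrays, 238, 156, 187 and 185 at 100 µM and 334, 347, 281, 358 and 301 at 5 mM. High-dose arrays lay above all low-dose arrays (0.74 ± 0.15 (SE, adjusted p = 0.00187)), and controls overlapped both. Its low-dose value of -0.47 passed after scaling to a common median (adjusted p = 0.0173), with a filter at the 50th percentile (adjusted p = 0.0484) and without low-dose replicate 1 (adjusted p = 0.0304). Usp5, which recycles free ubiquitin chains, read 712, 634 and 735 on the PBS arrays, 554, 589, 503 and 619.7 at 100 µM and 713, 837, 730.3, 835 and 786 at 5 mM. Its low-dose arrays lay below all others, and the difference between the doses was 0.46 ± 0.10 (SE, adjusted p = 0.00398). Against the controls the low-dose value was -0.29 ± 0.12 (SE, adjusted p = 0.0902), which passed after scaling to a common median (adjusted p = 0.0206).

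Uchl1, abundant in neurons and germ cells, rose at the high dose. It read 423, 445 and 530.1 on the PBS arrays, 481, 396, 395 and 494 at 100 µM and 615, 669, 652, 574 and 666 at 5 mM. All high-dose arrays lay above all others, by 0.44 ± 0.12 (SE, adjusted p = 0.0312) against the controls and 0.52 ± 0.11 (SE, adjusted p = 0.00297) against the low dose. The first call was lost without any 1 of control replicates 1 and 2 and high-dose replicates 1, 2, 3 and 5 (adjusted p from 0.0537 to 0.118) and after scaling to a common median and with no variance trend (adjusted p from 0.0569 to 0.0729), while that between the doses held under every alternative. With the replicate number as a block the high-dose call of Uchl1 against the controls was lost as well. Of the proteasome's own deubiquitinases, Uchl5 read 487, 295 and 273 on the PBS arrays, 297, 263, 257 and 329 at 100 µM and 391, 355, 527, 629.6 and 374 at 5 mM. The high-dose arrays lay above the low-dose arrays (0.62 ± 0.19 (SE, adjusted p = 0.0219)), but the controls overlapped both, control replicate 1 standing above the other controls. This call was lost without any 1 of low-dose replicates 2 and 3 and high-dose replicates 3 and 4 (adjusted p from 0.0541 to 0.0625). At the high dose Uchl5 had a value of 0.38 (adjusted p = 0.264), which passed with array quality weights (adjusted p = 0.0285). Usp14, the other one, gave -0.25 and -0.23 against the controls, and all its groups overlapped.

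**Figure D3:**
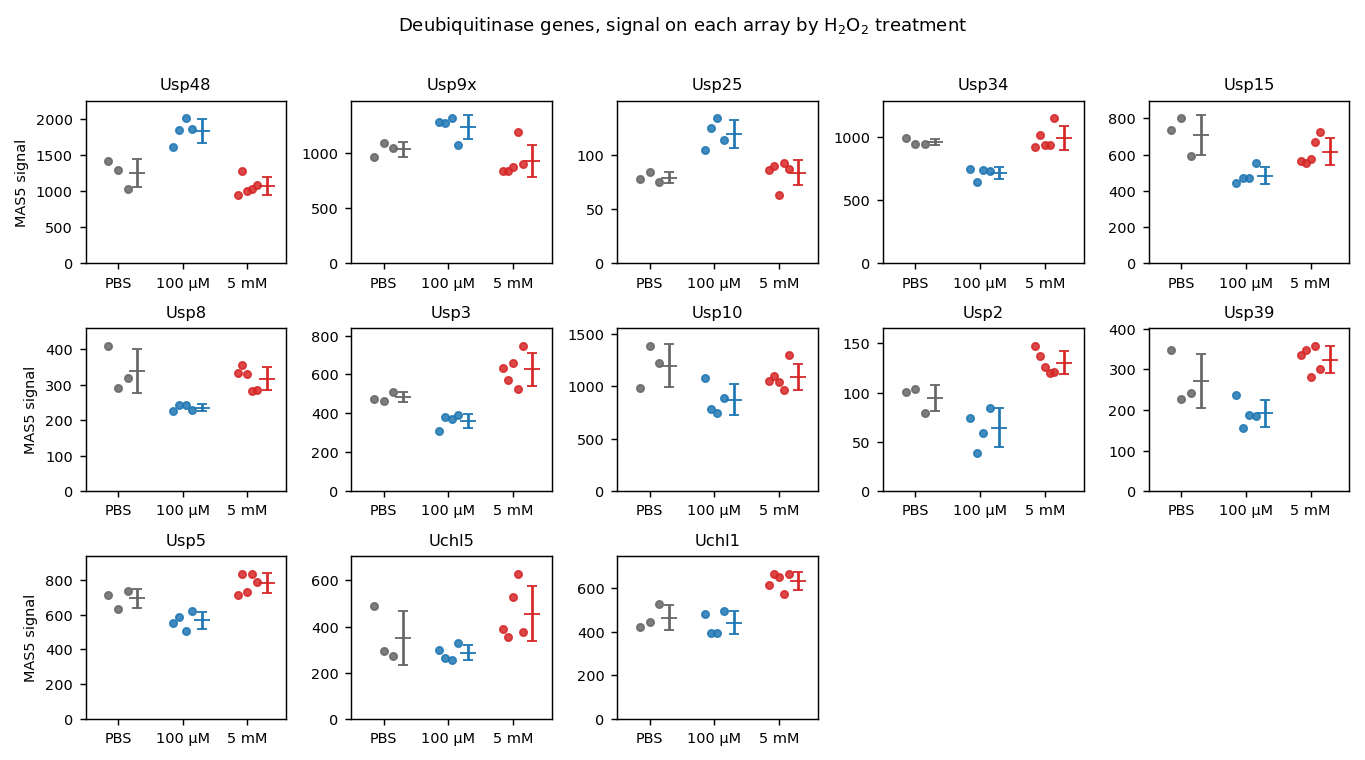
MAS5 signal on each array (linear vertical axes from 0) for the 13 deubiquitinase genes called in at least 1 comparison. Points are single arrays, and the bar beside them is the mean with its SD (n = 3 PBS, 4 at 100 µM, 5 at 5 mM). Usp48 and Usp25 are highest at 100 µM, Usp34, Usp8, Usp3 and Usp5 are lowest there, and Usp2 and Uchl1 are highest at 5 mM.

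The other tested Usp genes passed in no comparison. The largest values were those of Usp24, -0.38 ± 0.14 (SE, adjusted p = 0.106) at the high dose, which passed with array quality weights (adjusted p = 0.0224), and of Usp38, 0.35 ± 0.15 (SE, adjusted p = 0.104) at the low dose, which passed with array quality weights (adjusted p = 0.0452). Usp38 read 361, 354 and 279 on the PBS arrays, 456, 388, 448 and 401 at 100 µM and 370.5, 266, 367, 358 and 393 at 5 mM, its low-dose arrays above the controls. Usp1 (which removes ubiquitin that the Fanconi and replication clamp E2 enzymes attach), Usp7 (which spares both Mdm2 and p53), Usp22 (of the SAGA chromatin complex), Usp4, Usp19, Usp21 and Usp33 ranged from -0.31 (Usp1, between the doses) to 0.31 (Usp22, high dose). These are values of the brightest probe sets. A dimmer one of Usp19 gave 0.74 at the low and 0.66 at the high dose (adjusted p = 0.357 and 0.455). It read 15.7 on control replicate 1, against 159 and 188 on control replicates 2 and 3. The 7 members too dim to be tested were Ube2w, Usp12, Usp17la and Usp17lc (deubiquitinases first found as cytokine-induced in blood cells), Usp18 (the Isg15 protease), Usp29 and Usp42. The brightest of these was Usp42, with means of 16.7 (PBS), 20.4 (100 µM) and 18.6 (5 mM).

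Several members were read by more than 1 probe set, 19 in all, 14 of them by 2 or more that were tested. At the low dose the probe sets of 8 of these 14 genes had the same sign and those of 6 (Ube2d2a, Ube2k, Ube2z, Usp15, Usp19 and Usp7) did not; in no gene were opposite signs both called. The low-dose calls of Ube2d2a, Ube2z and Usp15 thus end and turn sign on their dimmer probe sets. With the dimmest tested probe set in place of the brightest, 5 members rose and 4 fell at the low dose, against 4 and 8. The split between the doses became 7 higher and 4 lower, and at the high dose it stayed at 2 and 3. Of the 74 probe sets 16 carry a suffix that marks shared or reduced probes, 6 of them standing for a tested gene. Without them the counts were 1 higher and 2 lower at the high dose, 2 and 6 at the low dose and 9 and 4 between the doses.

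**Figure D4:**
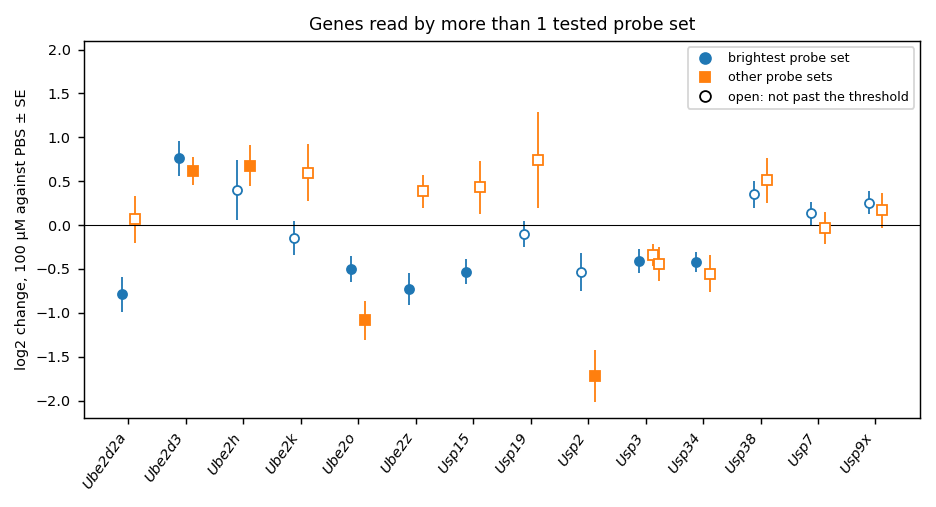
Log2 change of signal plus offset at 100 µM against PBS, with its standard error, for the 14 genes read by 2 or more tested probe sets. Circles are the brightest probe set of a gene and squares its others; filled symbols passed the threshold. The probe sets of Ube2d3, Ube2o, Usp3 and Usp34 lie on 1 side of 0, while those of Ube2z and Usp15 lie on opposite sides.

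The rest of the ubiquitin system was counted from lists of genes, also chosen with earlier results of these data known. Of all 6414 genes tested, 12.2% were called at the high dose (5.36% higher, 6.84% lower). The shares were 24.6% at the low dose (11.9% and 12.7%) and 29.0% between the doses (13.8% and 15.2%). None of the 4 ubiquitin precursor genes had a probe set of its own single symbol, so they are not analysed here. Of 12 tested ubiquitin-like modifiers, 2 rose at the high dose (Urm1 0.91 and Sumo3 0.50, the latter with a control mean of 3586), and 3 at the low dose (Urm1 0.81, the autophagy modifier Atg12 0.53 and Ubl3 0.47). Between the doses 2 were higher and 3 lower, led by Ubl3 (-0.80), Gabarapl1 (-0.51) and Gabarapl2 (-0.50). The medians were 0.05, 0.10 and 0.01. Equal medians gave splits of 1 and 0, 1 and 1, and 2 and 2, and quantile normalization 1 and 1, 4 and 0, and 1 and 3, in the same order of comparisons. Sumo3 lost its call without any 1 of control replicates 2 and 3 (adjusted p from 0.092 to 0.119) and after quantile normalization and after scaling to a common median (adjusted p from 0.142 to 0.303). With the replicate number as a block, Sumo3 at the high dose and Ubl3 at the low dose lost their calls too. At the low dose Urm1 lost its call without control replicate 1 (adjusted p = 0.0536). Atg12 lost its call without any 1 of control replicates 1 and 3 and low-dose replicates 3 and 4 (adjusted p from 0.0541 to 0.106) and after scaling to a common median and with no variance trend (adjusted p from 0.0531 to 0.2). Ubl3 did so without any 1 of control replicates 1 and 3 and low-dose replicates 1 and 4 (adjusted p from 0.0739 to 0.118) and after scaling to a common median and with no variance trend (adjusted p from 0.0631 to 0.164). Gabarapl1 lost its call without any 1 of low-dose replicates 2, 3 and 4 and high-dose replicate 4 (adjusted p from 0.0506 to 0.0831) and after quantile normalization and after scaling to a common median (adjusted p from 0.0553 to 0.108).

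Of 8 tested further E1 and E2 enzymes and partners, limma called none at the high dose (0 with p under 0.05 before adjustment), while 2 fell at the low dose, the autophagy E1 Atg7 (-0.68) and the Sumo E1 subunit Sae1 (-0.42). Atg7 was 0.85 higher at the high dose than at the low dose, on the log2 scale, the 1 call of that comparison. Of 10 further deubiquitinases and Sumo or Nedd8 proteases, none was called at the high dose in limma (1 had an unadjusted p under 0.05). At the low dose Otud4 fell (-0.82) while Zranb1 (0.81) and the signalosome subunit Cops5 (0.42) rose, and Senp6, which trims Sumo chains, was lower at the high than at the low dose (-0.76). The medians of these 2 lists were -0.11 and -0.10 at the high dose, -0.29 and 0.16 at the low dose and 0.07 and -0.27 between the doses. Of all genes tested, 12.2%, 24.6% and 29.0% were called in these comparisons. For the deubiquitinase and protease list, equal medians gave 1 higher and 1 lower both at the low dose and between the doses. Sae1 lost its call without any 1 of control replicate 1 and low-dose replicate 2 (adjusted p from 0.0611 to 0.0639). Zranb1 lost its low-dose call with the replicate number as a block. The call of Otud4 was lost without any 1 of control replicate 3 and low-dose replicate 4 (adjusted p from 0.0664 to 0.15) and with no variance trend and when only the groups compared were fitted (adjusted p from 0.0502 to 0.066). For Zranb1 it was lost without any 1 of control replicate 1 and low-dose replicates 1 and 4 (adjusted p from 0.071 to 0.122) and with array quality weights and when only the groups compared were fitted (adjusted p from 0.056 to 0.0589), and for Cops5 without control replicate 3 (adjusted p = 0.0575) and after scaling to a common median (adjusted p = 0.218).

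Among 45 tested ligases of the RING, HECT and RBR classes, 4 rose and 2 fell at the high dose, 8 rose and 6 fell at the low dose, and 7 were higher and 11 lower at the high than at the low dose, with medians of -0.09, -0.01 and -0.05. Over all genes 12.2%, 24.6% and 29.0% were called in these comparisons. With arrays set to equal medians the splits of the ligases were 2 and 3, 5 and 10, and 9 and 6. Mdm2, the p53 ligase, rose at the low dose (1.72) and was lower at the high than at the low dose (-2.12), a direction shared by Arih2 (-1.45) and Arih1 (-1.43), RBR ligases that work with cullins; the value of Arih1 at the low dose was 1.03. The corepressor Trim28 read 1.18 and 1.66 higher on the log2 scale at the low and high dose, with mean signals of 4578 (PBS), 10318 (100 µM) and 14562 (5 mM), where no probe set on a control array read above 8904. At the high dose Traf6 rose (1.06) and Trim25 fell (-0.79). Traf6 lost its call without control replicate 3 (adjusted p = 0.0571). The replicate number as a block ended the low-dose call of Arih1. Arih1 lost its low-dose call without any 1 of control replicates 1, 2 and 3 and low-dose replicates 1, 3 and 4 (adjusted p from 0.0564 to 0.102) and after scaling to a common median, with no filter and with no variance trend (adjusted p from 0.054 to 0.0996).

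Of 36 tested subunits of cullin ligases and the anaphase-promoting complex, 2 rose at the high dose (the signalosome subunit Cops8 0.67 and the cullin adaptor Skp1 0.61). At the low dose 4 rose and 12 fell, with a median of -0.14, where 11.9% of all genes rose and 12.7% fell. Among the 4 was Cops5, which stands on the list of deubiquitinases and proteases too and is counted in both. The substrate receptors Fbxw7 (1.65) and Vhl (0.82) and the adaptor Eloc (0.80) rose most. Between the doses 13 were higher and 4 lower, with a median of 0.17 (all genes 13.8% higher and 15.2% lower), among them Fbxw7 (-1.44), the RING subunit Rnf7 (-1.04) and Cops6 (0.70). Scaling to a common median made the low-dose split 2 and 14 and that between the doses 16 and 2, and quantile normalization made the high-dose split 2 and 2. Cops8 lost its call without any 1 of control replicates 2 and 3 (adjusted p from 0.057 to 0.0744) and after scaling to a common median (adjusted p = 0.0531), Skp1 without control replicate 2 (adjusted p = 0.056). Vhl lost its low-dose call without any 1 of control replicates 1 and 2 and low-dose replicates 1, 2 and 3 (adjusted p from 0.0518 to 0.153) and after quantile normalization, after scaling to a common median, with no filter, with array quality weights and when only the groups compared were fitted (adjusted p from 0.0525 to 0.0935).

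Among 17 ubiquitin receptors, shuttles and p97 partners, 3 rose and 1 fell at the high dose: Faf1 (0.74), the endosomal receptor Stam (0.50) and, falling, the autophagy receptor Nbr1 (-0.71) led them. At the low dose the proteasome's ubiquitin receptor Psmd4 fell (-0.96) and the p97 partner Ufd1 rose (0.56). Between the doses 4 were higher and 2 lower, led by Faf1 (0.89), Psmd4 (0.87) and Stam (0.67). Over all genes 12.2% were called at the high dose, 24.6% at the low dose and 29.0% between the doses. The medians of the 17 were 0.00, 0.01 and -0.03, and equal medians gave splits of 1 and 1, 0 and 1, and 4 and 1, for high dose, low dose and between the doses. Stam lost its high-dose call without control replicate 3 (adjusted p = 0.0519), after scaling to a common median (adjusted p = 0.0747) and with the replicate number as a block. Ufd1 lost its low-dose call without control replicate 1 (adjusted p = 0.0725) and after scaling to a common median (adjusted p = 0.0988).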

How the data were processed

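Sample titles gave the groups and replicate numbers. In the deposited table each probe set has an intensity on a linear scale for each array, a MAS5 signal per the submitters' processing notes; the sources used here give no version, scaling target or detection calls. The deposited intensities had the same mean on every array after trimming 2% at each end, to within 0.0195%, so the authors' scaling was kept (tolerance 10%). From them log2(signal + 10.1) was computed, 10.1 being the 20th percentile of all values. The 66 control probe sets were left out, and probe sets with a mean log2 value above the 30th percentile were tested, 8695 in all. The model in limma 3.58.1 (R 4.3.3) had 1 mean per group over the 12 arrays, with eBayes and a variance trend; tests were two-sided and adjusted by Benjamini-Hochberg over 8695. Standard errors are limma's. Arrays have no read depth, and their number limits the precision.

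Gene names came from the platform annotation, updated by Entrez number through RefSeq records of GRCm38.p6 (10817 of 10833 single-symbol probe sets matched, all 74 of the members). 396 probe sets had several symbols and name no gene, and 1193 were not listed. The array files name no build. The highest mean log2 value chose a gene's probe set. All members past the threshold are given in full; of the others, the 2 with the largest change per role, and of each pathway list up to 3 called genes per comparison. The members and lists were chosen with earlier results of these data known. The fit was tested on simulated data in which 200 of 8695 probe sets were changed. Of log2 changes of 1 it recovered 62% at the high dose, 65% at the low dose and 68% between the doses. Of log2 changes of 2 it recovered 93%, 99% and 97%, with 7, 7 and 6 false calls. Smaller changes, such as most of those given here, were not simulated. Replicate numbers are shared between groups, and the correlations of same-numbered arrays are given in the closing section. Alternatives were scaling (quantile, common median), the offset (a floor instead, or 4 times as large), the filter (none, or the 50th percentile), the variance model (without trend, or with array quality weights), fitting the compared groups alone, the replicate number as a block, each array left out, the dimmest probe set per gene and, chosen after seeing the data, only probe sets with no suffix.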

Additional observations from a re-analysis of the deposited data

Results flagged for a closer look

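In 100 groups of 4 or 5 arrays, each the low-dose or high-dose arrays of 1 probe set, the highest or lowest array stood apart from the rest of its group by Dixon's 95% limit in 7, on the log2(signal + 10.1) scale, where chance gives about 1 in 20. Signals are given below on the linear scale, on which the gap of Ube2e3 and the low-dose gaps of Usp34 and Usp9x do not reach the limit. At the high dose, replicate 4 read 1360.5 for Ube2s (others 1519 to 1580.2) and 22.7 for Ube2e3 (others 36.0 to 42.8), both low, and 1192 for Usp9x, high (others 840.2 to 904.5). Usp25 read 63.1 on replicate 3 (others 86.0 to 92.1) and Usp38 266 on replicate 2 (others 358 to 393). At the low dose, Usp34 read 646 on replicate 2 (others 728 to 746) and Usp9x 1078 on replicate 4 (others 1274 to 1318).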

How the results depend on the processing

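At the high dose the count of 5 called members was 3 after quantile normalization, 3 with no filter, 3 with only probe sets with no suffix (a setting chosen after seeing the data), 2 with no variance trend and 8 with array quality weights, which raised the count over all probe sets from 1018 to 1655. None of these 5 calls held with every array left out in turn. Leaving out 1 array gave 1 to 6 members at the high dose (1 without control replicate 2, high-dose replicate 2 or high-dose replicate 5, 2 without control replicate 3 or high-dose replicate 1, 3 without control replicate 1), 6 to 13 at the low dose (6 without control replicate 2, 7 without control replicate 3, against 12) and 12 to 17 between the doses (15). Over all probe sets the ranges were 490.0 to 1012, 1425 to 2141 and 1994 to 2553, the lowest at the high dose without control replicate 2, and 599 without control replicate 3. Of the calls, 3 of 12 at the low dose (Ube2d2a, Ube2z and Usp34) and 10 of 15 between the doses held under every alternative fitted to their probe set; the cause of the others' loss was not tested. No called change turned its sign on the same probe set, but the low-dose changes of Ube2d2a, Ube2z and Usp15 did on the dimmer probe set, to 0.06, 0.38 and 0.43, and the calls of Usp34 ended on its other one. With the replicate number as a block, 2 members were called at the high dose (597 of all probe sets), 9 at the low dose and 12 between the doses. Same-numbered arrays correlated in their deviations from the group means at -0.18 to 0.15 (10 pairs). The 2 above 0.1 were low-dose with high-dose replicate 2 (0.15) and replicate 4 (0.11). Arrays of different numbers correlated at -0.16 to 0.18. With so few arrays per group these values cannot tell whether same-numbered arrays share a batch.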
